A study of Mus musculus with 18 samples.

Results

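The genes described here encode 9 nuclear factors that cut, degrade or bind the RNA met by an antisense gapmer, or that form the paraspeckle, a nuclear body whose proteins also bind such oligonucleotides. They are the nucleases Rnaseh1, Rnaseh2a, Xrn2 and Exosc10, the long non-coding RNAs Neat1 and Malat1, and the paraspeckle proteins Nono, Sfpq and Pspc1. They were taken by gene symbol from a table of 54347 genes, and all 9 were among the 14949 genes with enough counts to be tested. The cells came from wt1-SAM, a line of immortalised brown preadipocytes of the mouse with a stable CRISPR activation system (SAM), which all groups carried. All cells were differentiated for 7 days and reverse transfected on day 4 with 1.4 µl of a 10 µM locked nucleic acid gapmer (LNA), with 500000 cells per well. The LNA was either the non-targeting control ctrlA, or LNA1 or LNA2, which are directed against the long non-coding RNA Gm15551. For each LNA the cells were left unstimulated or were exposed for the last 24 h to isoproterenol at 1 µM. This drug acts on β-adrenergic receptors, through which heat production is switched on in brown adipocytes. Each of the 6 groups held 3 libraries of polyadenylated RNA, numbered 2, 3 and 4. No untransfected cells were among the libraries, so that an effect common to all LNAs cannot be told apart from the state of the cells. The labels do not say whether the numbers stand for separate cultures, and p-values then measure the spread between these libraries, which may be technical.

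A gapmer has a stretch of DNA between modified ends. RNase H1, encoded by Rnaseh1, recognises the hybrid of this DNA with the target RNA and cuts the RNA strand. RNase H2, whose catalytic subunit is encoded by Rnaseh2a, also cuts RNA in such hybrids and removes ribonucleotides from genomic DNA. The cut RNA is then open to exonucleases, of which Xrn2 works from the 5′ end in the nucleus and Exosc10 is a 3′ exonuclease of the nuclear exosome. Paraspeckles are nuclear bodies built on the long isoform of Neat1, to which the related proteins Nono, Sfpq and Pspc1 bind as dimers. These proteins are also known to bind oligonucleotides with a phosphorothioate backbone. Malat1 lies next to Neat1 on the chromosome and its RNA is found in nuclear speckles. The 3′ ends of Malat1 and of the long Neat1 isoform are closed by a triple helix and not by a poly(A) tail, so that selection of polyadenylated RNA need not capture them in full.

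The sequences of the LNAs are shown to set their sites in Gm15551 beside the best stretch they share with the annotated transcripts of any of the 9 genes. They are written 5′ to 3′, and capitals mark the bases that pair without a gap or mismatch with the RNA named.

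LNA1, on Gm15551: GATGACTGAGATTAGA

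LNA2, on Gm15551: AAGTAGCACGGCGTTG

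ctrlA, on Neat1: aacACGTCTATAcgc

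LNA1, on Exosc10: GATGACTGAgattaga

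LNA2, on Neat1: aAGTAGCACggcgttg

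Each of LNA1 and LNA2 was complementary to Gm15551 over its whole length of 16 bases, whereas the longest run of ctrlA on Gm15551 was 4 bases. Both sites lie in exon 2 of 2 of Gm15551, which is transcribed from the minus strand. In the mouse genome build GRCm38 the site of LNA1 is at chr3:126667502-126667517 and that of LNA2 at chr3:126667608-126667623. In the annotated transcripts of the 9 genes the longest run was 6 to 9 bases for ctrlA, 6 to 9 bases for LNA1 and 6 to 8 bases for LNA2. Introns outside these transcripts were not searched, so that longer runs in unspliced RNA were not looked for. The run of 9 bases of ctrlA lies near the 3′ end of the long Neat1 isoform, at bases 18630 to 18638 of 20771. Runs of 9 bases or more were found in the transcripts of 2.22% of tested genes for ctrlA, 12.4% for LNA1 and 4.2% for LNA2. On Neat1 the longest run was 8 bases for LNA2, a length that 21.8% of tested genes reached, and 8 bases for LNA1 as well, which 40.5% reached. A run of this kind describes the sequences and does not show that the RNA was bound or cut.

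Library totals ranged from 9167560 to 19723021 counts. Levels are given as CPM, that is counts scaled to the library size after TMM normalisation, and 3 counts, taken as the floor of detection, corresponded to 0.17 to 0.306 CPM. Gm15551 itself was near this floor in every group. In unstimulated cells it had 14, 8 and 7 counts in the ctrlA libraries numbered 2, 3 and 4, 12, 3 and 3 counts in those of LNA1 and 13, 3 and 1 counts in those of LNA2. Scaled to library size, the unstimulated libraries numbered 2 ran the other way, with 0.793 CPM for ctrlA, 1.02 CPM for LNA1 and 1.07 CPM for LNA2. Those numbered 3 and 4 held 0.576 and 0.57 CPM with ctrlA and 0.266 and 0.305 CPM with LNA1. With LNA2 they held 0.212 and 0.0699 CPM. In stimulated cells Gm15551 had 9, 2 and 2 counts with ctrlA, 1, 4 and 1 with LNA1 and 4, 5 and 1 with LNA2. Stimulated number 3 was higher with LNA1 (0.29 CPM) and LNA2 (0.392 CPM) than with ctrlA (0.129 CPM), and stimulated numbers 2 and 4 were lower with both. Over unstimulated and stimulated cells its level was 0.492 ± 0.267 CPM with ctrlA (SD, n = 6), while LNA1 gave 0.341 ± 0.346 CPM and LNA2 gave 0.367 ± 0.373 CPM. The differences were smaller than these spreads, which pool both stimulation states and all replicate numbers. At such counts the extent of a knockdown was not settled here, while the study reported a robust lowering of Gm15551 by both LNAs. The 6 adipocyte markers checked (Adipoq, Fabp4, Pparg, Plin1, Cebpa and Lipe) summed to 9570 to 23209 CPM in all 18 libraries. Of the brown adipocyte markers, Elovl3 was at 188.6 to 408.4 CPM and Ppargc1a at 41.8 to 91.8 CPM. Cidea was at 3.4 to 25.4 CPM, Ucp1 at 0.62 to 16.5 CPM, and Dio2 was at 0 in 9 libraries. Of the macrophage markers, Ptprc and Adgre1 were at 0 in 11 and 15 libraries and Csf1r was at most at 2.31 CPM, while Cd68 was found in all libraries at 7.82 to 42.4 CPM. Of the endothelial markers, Kdr was at 0 in 15 and Cdh5 in 6 libraries, while Pecam1 was found in all libraries at 1.59 to 3.81 CPM, and the myogenic markers summed to at most 0.177 CPM. The libraries numbered 2 stood apart, since CT010467.1, a gene of ribosomal RNA sequence, took 2.88% to 14.3% of their counts and 0.285% to 1.04% in the other 12 libraries. Mitochondrial genes took 7.86% to 9.79% of the counts in the libraries numbered 2 and 2.56% to 4.97% in the others.

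Per kilobase of annotated exon, Malat1 was the most abundant of the 9 genes, with 138.6 ± 38.2 CPM per kb (SD, n = 18). Nono followed with 74.6 ± 12.7 CPM per kb. Over the 18 libraries Xrn2 with 37.8 ± 6.09 and Sfpq with 35.6 ± 7.9 CPM per kb did not differ beyond their spread. This pools the replicate numbers, although Xrn2 was higher and Sfpq lower in every library numbered 2 than in all others. Their order thus depended on the number. Exosc10 was at 23.7 ± 2.15, Neat1 at 19.2 ± 5.66 and Rnaseh2a at 13.5 ± 2.05 CPM per kb, and Neat1 overlapped each of its neighbours in this order. The level of Neat1 also differed between the replicate numbers, so that its place is that of the pooled libraries. The value of Neat1 rests on the length of the long isoform, 20771 bases, and would be higher if most reads came from the short isoform. Pspc1 was at 7.49 ± 1.13 CPM per kb, and Rnaseh1, the enzyme through which gapmers act, was the least abundant with 4.86 ± 0.641 CPM per kb. Among the paraspeckle proteins the level per kilobase of Nono was thus the highest and that of Pspc1 the lowest, with ranges over the 18 libraries of 60.3 to 98.9 and 5.55 to 9.87 CPM per kb.

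**Figure D1:**
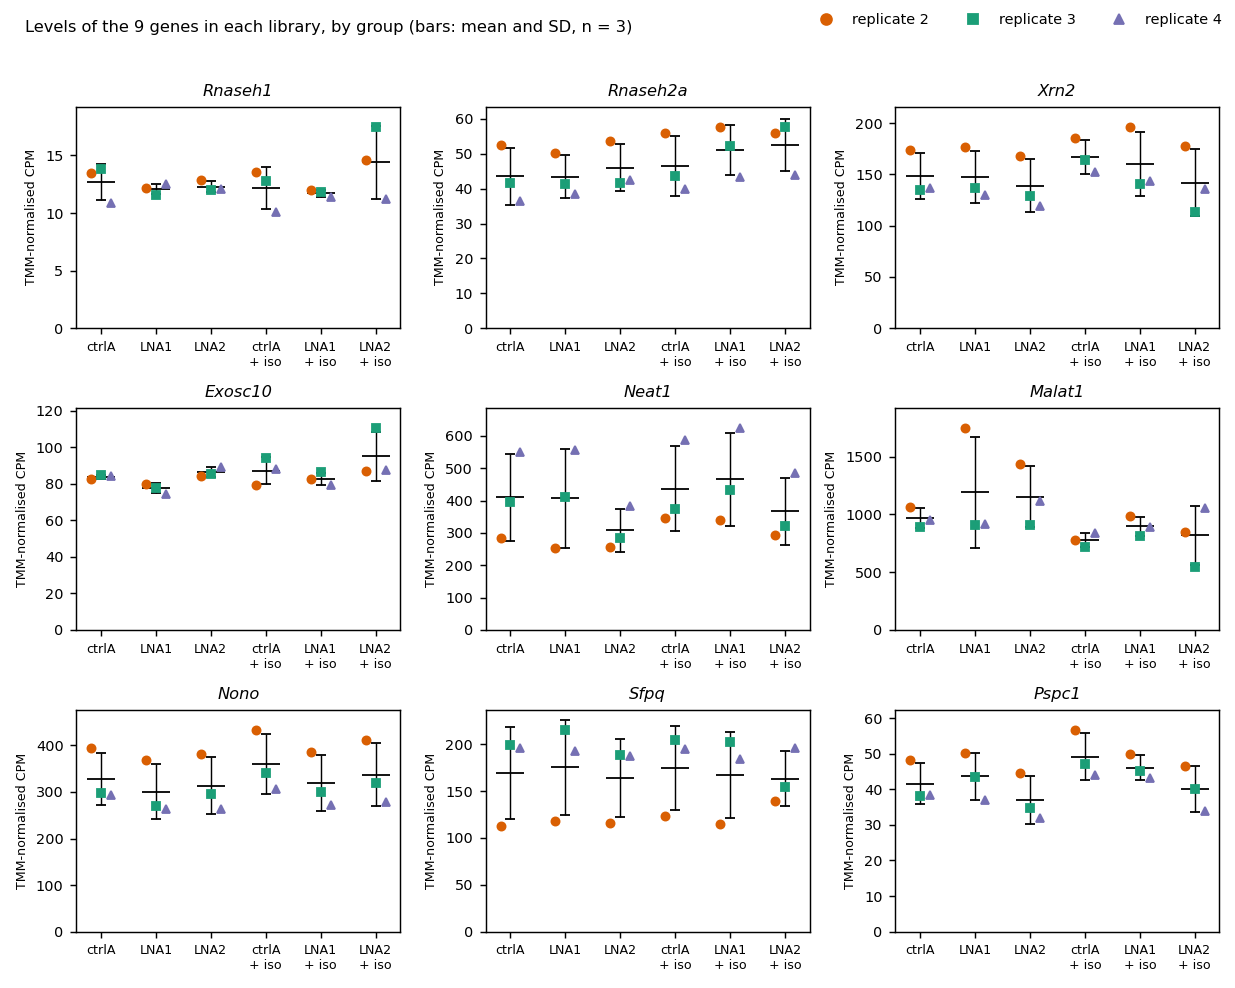
TMM-normalised CPM (y axis, from 0) of each of the 9 genes in each of the 18 libraries, by LNA and stimulation (x axis); colours and symbols mark the replicate number and bars the mean and SD of the 3 libraries of a group. In every group the library numbered 2 is the lowest for Sfpq and Neat1 and the highest for Xrn2 and Nono.

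The replicate number separated the libraries more than the LNA or the stimulation did for most of these genes. It took 89.6% of the sum of squares of log2 CPM for Sfpq, 85.7% for Nono, 73.3% for Neat1, 72.1% for Xrn2, 63.8% for Rnaseh2a and 54.4% for Pspc1. The median over all tested genes was 49.4%, and Rnaseh1 with 31.5%, Malat1 with 31.1% and Exosc10 with 16.6% were below it. Sfpq was at 120.7 ± 9.69 CPM in the 6 libraries numbered 2 and at 193.1 ± 14.8 CPM in the 12 others, with no overlap. In the other direction, Nono was at 395.9 ± 22.9 CPM in the libraries numbered 2 and at 291.6 ± 23.5 CPM in the others, again with no overlap, and Xrn2 was at 179.6 ± 9.88 and 136.2 ± 13.4 CPM. Neat1 differed between all numbers with some overlap, with 295.6 ± 40.1 CPM in the libraries numbered 2, 370.4 ± 56.9 CPM in those numbered 3 and 530.9 ± 86.2 CPM in those numbered 4. In all 6 libraries numbered 2, 17.1% of tested genes were below and 17.4% above each of the other 12 libraries. The shares of CT010467.1 and of mitochondrial counts moved with the same split into number 2 and the rest, and their part in these levels was not tested.

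**Figure D2:**
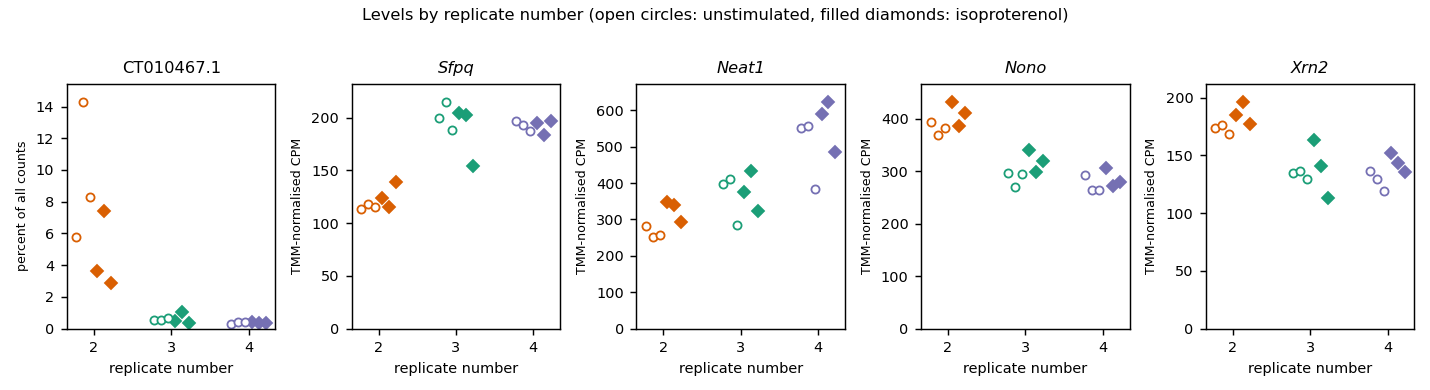
Share of all counts taken by CT010467.1 (left, percent) and TMM-normalised CPM of Sfpq, Neat1, Nono and Xrn2 in the 18 libraries by replicate number; open circles are unstimulated and filled diamonds isoproterenol-treated cells. Sfpq sits at 113.1 to 139.0 CPM in number 2 and at 154.4 to 215.0 CPM in numbers 3 and 4.

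To ask whether transfection of a targeting LNA or β-adrenergic stimulation changed the machinery on which gapmers depend, each LNA was compared with ctrlA over both stimulation states (6 libraries against 6), LNA2 with LNA1 in the same way, and stimulated with unstimulated cells over the 3 LNAs (9 against 9). In edgeR's quasi-likelihood test with 1 term per group, 0 of the 9 genes were called at an adjusted p below 0.05 with an absolute log2 fold change above 0.5 in any of these 4 contrasts, and 0 at an adjusted p below 0.05 alone. The share of all tested genes called was 0.442% for LNA1, 1.42% for LNA2, 0.923% for LNA2 against LNA1 and 3.2% for isoproterenol. At an unadjusted p below 0.05, where 6.01%, 10.6%, 9.2% and 15.0% of tested genes passed, there were Exosc10 for LNA2 against LNA1 and Malat1 for isoproterenol, with edgeR adjusted p of 0.534 and 0.184. DESeq2 without a term for the replicate number also passed 0 of the 9 in each contrast. The joint test of the 6 groups also passed 0 of the 9 genes at an adjusted p of 0.001, where 0.455% of tested genes passed, and the smallest adjusted p was that of Malat1 (0.808). The 95% intervals of the log2 fold changes reached from -0.84 to 0.65 for the comparisons of an LNA with ctrlA and from -0.74 to 0.59 for isoproterenol. For the most variable genes this fit therefore did not exclude changes up to these limits.

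Libraries of the same number deviated together across the groups, and a fit with the replicate number as a block is given beside the first. The block narrowed the intervals and left the fold changes close to what they were. It brought 1 of the 9 genes past an adjusted p of 0.05 for LNA1, 3 for LNA2, 3 for LNA2 against LNA1 and 5 for isoproterenol. With the same block, 7.8%, 20.6%, 15.4% and 26.4% of all tested genes passed in these contrasts. None of the changes exceeded 0.5 on the log2 scale, so that 0 of the 9 were called under both limits, under which 2.43%, 5.53%, 4.11% and 7.0% of all tested genes were. Several of these results needed all 18 libraries. Leaving out the libraries of 1 number, whichever it was, gave adjusted p of 0.102 to 0.185 for Xrn2 with LNA2, 0.0714 to 0.298 for Nono with LNA1, 0.0932 to 0.258 for Exosc10 in LNA2 against LNA1 and 0.0554 to 0.087 for Rnaseh2a with isoproterenol, all in the same direction as before. With the block, 0 of the 9 genes passed the joint test at 0.001, where 8.93% of tested genes did, and the smallest adjusted p were those of Pspc1 (0.00266) and Neat1 (0.00417).

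**Figure D3:**
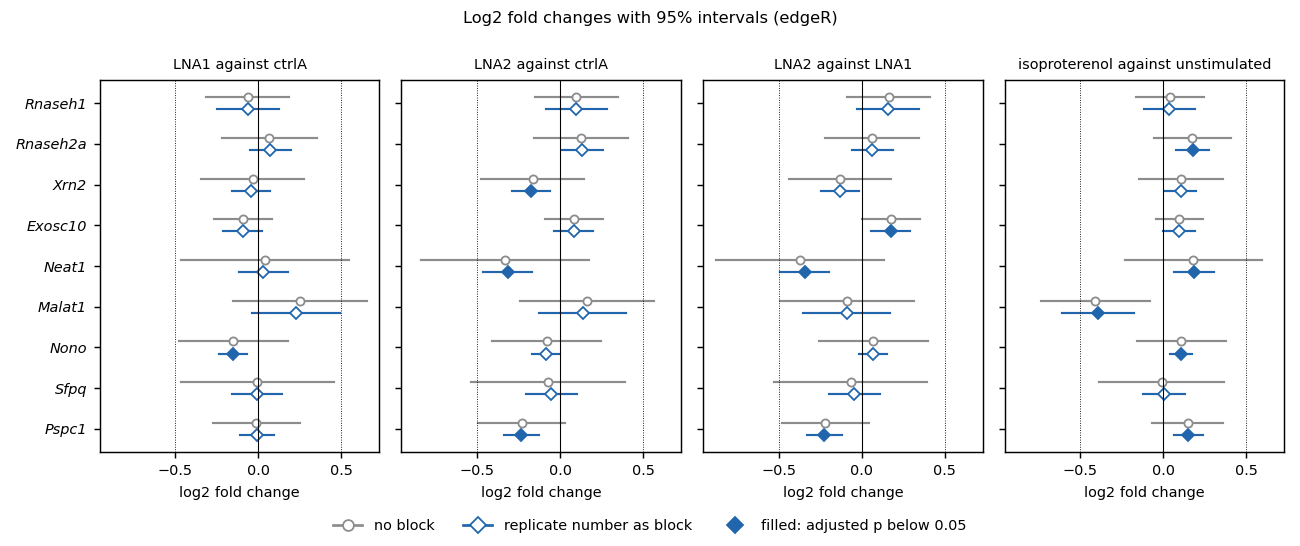
Log2 fold changes (x axis) of the 9 genes with 95% intervals in 4 contrasts, without (grey circles) and with the replicate number as a block (blue diamonds); filled symbols have an adjusted p below 0.05 and dotted lines mark -0.5 and 0.5. Filled symbols occur only in the fit with the block, for Nono, Xrn2, Neat1, Pspc1, Exosc10, Rnaseh2a and Malat1.

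The RNase H genes did not pass the test in any comparison of LNAs. Rnaseh1 (chr12:28649602-28659589, plus strand) was at 12.4 ± 1.56 CPM with ctrlA (SD, n = 6), while LNA1 gave 11.9 ± 0.394 CPM and LNA2 gave 13.4 ± 2.33 CPM. The log2 fold change was -0.07 (SE 0.12, adjusted p = 1) for LNA1 and 0.10 (SE 0.12, adjusted p = 0.934) for LNA2. With 1 library left out the value of Rnaseh1 ranged from -0.13 (without stimulated ctrlA replicate 4) to -0.01 (without stimulated ctrlA replicate 2) for LNA1. For LNA2 it ranged from 0.01 (without stimulated LNA2 replicate 3) to 0.175 (without stimulated LNA2 replicate 4). The widest spread came from stimulated LNA2 cells, where the libraries numbered 2, 3 and 4 had 14.6, 17.5 and 11.2 CPM. With isoproterenol its log2 fold change was 0.04 (SE 0.10, adjusted p = 0.952), and this value changed sign when the library numbered 3 of the stimulated LNA2 cells was left out (-0.01). Rnaseh1 also did not pass with the block, where the smallest adjusted p was 0.245 over the averaged contrasts (LNA2 against LNA1) and 0.164 within a single state (LNA2 against LNA1 in stimulated cells).

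Rnaseh2a (chr8:84956610-84969767, minus strand) was higher with isoproterenol once the replicate number was a term. In ctrlA cells it was at 52.6, 41.6 and 36.6 CPM in the unstimulated libraries numbered 2, 3 and 4 and at 56.1, 43.6 and 39.8 CPM in the stimulated ones. In LNA1 cells it went from 50.3, 41.4 and 38.5 CPM to 57.8, 52.3 and 43.5 CPM. In LNA2 cells it went from 53.7, 41.6 and 42.6 CPM to 55.9, 57.7 and 44.0 CPM. The stimulated library was thus the higher in 9 of 9 same-numbered pairs, by 0.05 to 0.47 on the log2 scale, although the groups overlapped because the numbers differed more than the treatment. On average the log2 difference was 0.17 (SE 0.11, adjusted p = 0.549) without and 0.18 (SE 0.05, adjusted p = 0.0122) with the block. A total of 15.3% of tested genes had all 9 pairs in 1 direction. Exons of Rnaseh2a overlap those of Prdx2 on the opposite strand over 177 bases and those of Gm49661 on the same strand over 339 bases, and since the use of strand in the counting was not stated, its counts are uncertain to that extent.

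Of the exonucleases, Xrn2 (chr2:147012996-147078000, plus strand) had its lowest mean with LNA2. With ctrlA it was at 157.7 ± 20.2 CPM (SD, n = 6), against 153.8 ± 26.4 CPM for LNA1 and 140.4 ± 26.4 CPM for LNA2, and these ranges overlapped. The LNA2 library was below the ctrlA library of the same number in 6 of 6 pairs, by 0.05 to 0.53 on the log2 scale, the largest gap being that of stimulated number 3 with 113.0 against 163.5 CPM. All 6 of these pairs lay in 1 direction for 22.0% of tested genes. The log2 fold change was -0.17 (SE 0.14, adjusted p = 0.855), and -0.18 (SE 0.05, adjusted p = 0.0305) with the block. With 1 library left out the unblocked value of Xrn2 ranged from -0.25 (without stimulated LNA2 replicate 2) to -0.10 (without stimulated LNA2 replicate 3). Within stimulated cells the blocked value was -0.25 (adjusted p = 0.0389, passed by 14.6% of tested genes) and within unstimulated cells -0.10 (adjusted p = 0.563). The difference between these states did not pass its own test (adjusted p = 0.81).

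Exosc10 (chr4:148558429-148582401, plus strand) was at 85.3 ± 7.73 CPM over the 18 libraries (SD). In unstimulated cells the libraries numbered 2, 3 and 4 were at 82.6, 84.6 and 84.0 CPM with ctrlA, at 80.0, 77.7 and 74.6 CPM with LNA1 and at 84.0, 85.3 and 89.3 CPM with LNA2. LNA1 libraries were thus below those of the other LNAs without overlap, as they were below LNA2 in stimulated cells, at 82.3, 86.3 and 79.3 against 86.9, 110.2 and 87.6 CPM. Groups of 3 did not overlap for 6.79% of tested genes in unstimulated LNA1 against ctrlA, 8.53% in unstimulated and 7.34% in stimulated LNA2 against LNA1. Averaged over both states, LNA2 exceeded LNA1 in 6 of 6 pairs, where 22.3% of tested genes had all pairs in 1 direction. The mean log2 difference was 0.18 (SE 0.08, adjusted p = 0.534), and 0.18 (SE 0.06, adjusted p = 0.0425) with the block. Neither LNA differed from ctrlA past the threshold, with adjusted p of 1 for LNA1 and 0.901 for LNA2, and of 0.348 and 0.314 with the block.

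Neat1 (chr19:5824708-5845478, minus strand), the RNA on which paraspeckles are assembled, was lower with LNA2 than with ctrlA or LNA1 in libraries of the same number. In unstimulated cells the libraries numbered 2, 3 and 4 were at 283.1, 397.0 and 550.1 CPM with ctrlA, at 252.9, 410.2 and 556.6 CPM with LNA1 and at 257.2, 284.1 and 382.4 CPM with LNA2. In stimulated cells they were at 347.5, 375.4 and 588.7 CPM with ctrlA, at 339.0, 434.0 and 623.3 CPM with LNA1 and at 294.0, 321.9 and 484.2 CPM with LNA2. LNA2 was below ctrlA in 6 of 6 pairs, by 0.14 to 0.52 on the log2 scale, and below LNA1 in 5 of 6, but the groups overlapped. The share of tested genes with all 6 pairs of LNA2 and ctrlA in 1 direction was 22.0%.

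The log2 fold change of Neat1 was -0.33 (SE 0.24, adjusted p = 0.775) for LNA2 against ctrlA, and -0.31 (SE 0.07, adjusted p = 0.00456) with the block. For LNA2 against LNA1 it was -0.37 (SE 0.24, adjusted p = 0.791), and -0.34 (SE 0.07, adjusted p = 0.00367) with the block. For LNA1 against ctrlA it was 0.04 (SE 0.24, adjusted p = 1), and 0.03 (SE 0.07, adjusted p = 0.854) with the block. The lower level was seen in unstimulated cells at -0.38 (adjusted p = 0.0353, block, passed by 4.8% of tested genes) and did not pass in stimulated cells at -0.25 (adjusted p = 0.0986, block), and the interaction of LNA2 with isoproterenol did not pass either (0.13, adjusted p = 0.844, block). Without the libraries numbered 4, where Neat1 was most abundant, the blocked value against ctrlA was -0.27 (adjusted p = 0.125) and that against LNA1 -0.29 (adjusted p = 0.138), so that neither passed. Both passed without the libraries numbered 2, at -0.35 (adjusted p = 0.00589) and -0.46 (adjusted p = 0.00229), and without those numbered 3, at -0.30 (adjusted p = 0.0221) and -0.27 (adjusted p = 0.0443). With single libraries left out, the unblocked value of Neat1 against ctrlA ranged from -0.46 (without stimulated LNA2 replicate 4) to -0.20 (without stimulated ctrlA replicate 4), and against LNA1 from -0.49 (without stimulated LNA2 replicate 4) to -0.22 (without unstimulated LNA1 replicate 4). These extremes came from leaving out libraries numbered 4, which left the replicate numbers unequal between the LNAs.

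Pspc1 (chr14:56720710-56778316, minus strand) was lower with LNA2 than with ctrlA in libraries of the same number, as Neat1 was. In unstimulated cells the libraries numbered 2, 3 and 4 were at 48.2, 38.0 and 38.4 CPM with ctrlA and at 44.7, 34.7 and 31.8 CPM with LNA2. In stimulated cells they were at 56.6, 47.0 and 44.0 CPM with ctrlA and at 46.5, 40.0 and 33.8 CPM with LNA2. LNA2 was below ctrlA and below LNA1 in 6 of 6 pairs each, and all of these groups overlapped. All 6 pairs lay in 1 direction for 22.0% of tested genes against ctrlA and for 22.3% against LNA1. Against ctrlA the log2 fold change with LNA2 was -0.23 (SE 0.12, adjusted p = 0.579), and -0.23 (SE 0.05, adjusted p = 0.00353) with the block. Against LNA1 it was -0.22 (SE 0.12, adjusted p = 0.703), and -0.22 (SE 0.05, adjusted p = 0.0066) with the block. Within stimulated cells the difference from ctrlA was -0.30 (adjusted p = 0.012, block, passed by 14.6% of tested genes) and within unstimulated cells -0.17 (adjusted p = 0.203, block), and the interaction did not pass (adjusted p = 0.818, block). For LNA1 against ctrlA it was -0.01 (SE 0.12, adjusted p = 1). The blocked difference of LNA2 from ctrlA was -0.23 (adjusted p = 0.052) without the libraries numbered 2 and -0.19 (adjusted p = 0.114) without those numbered 4, while it still passed without those numbered 3. That of LNA2 from LNA1 was -0.19 (adjusted p = 0.141) without the libraries numbered 4, and just passed without those numbered 2 (adjusted p = 0.0391) or those numbered 3 (adjusted p = 0.04998).

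Nono (chrX:101429318-101448591, plus strand) was the only one of the 9 genes past the threshold for LNA1 with the block, and the change was small. In unstimulated cells the libraries numbered 2, 3 and 4 were at 393.4, 297.6 and 293.3 CPM with ctrlA and at 368.7, 269.5 and 264.1 CPM with LNA1. In stimulated cells they were at 432.6, 340.6 and 306.9 CPM with ctrlA and at 386.8, 298.9 and 271.0 CPM with LNA1. Every LNA1 library was below the ctrlA library of its number, by 0.09 to 0.19 on the log2 scale, and 20.0% of tested genes had all 6 of these pairs in 1 direction. On average the log2 difference was -0.15 (SE 0.15, adjusted p = 1), and -0.15 (SE 0.04, adjusted p = 0.026) with the block. The unblocked value of Nono ranged from -0.24 (without unstimulated LNA1 replicate 2) to -0.07 (without stimulated ctrlA replicate 2) with 1 library left out. For LNA2 against ctrlA Nono was lower in 6 of 6 pairs too, by 0.01 to 0.15, and 22.0% of tested genes had all 6 pairs in 1 direction. Here the mean log2 difference was -0.08 (SE 0.15, adjusted p = 0.973), and -0.08 (SE 0.04, adjusted p = 0.141) with the block, whereas DESeq2 with the block gave -0.09 (adjusted p = 0.0441), past the threshold.

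Sfpq (chr4:127021324-127037013, plus strand), the third of the related proteins, did not pass in any contrast. With ctrlA its level was 172.1 ± 41.9 CPM (SD, n = 6), against 171.2 ± 43.6 CPM for LNA1 and 163.5 ± 32.5 CPM for LNA2, and 169.6 ± 41.3 CPM in unstimulated against 168.3 ± 35.7 CPM in stimulated cells (n = 9). The blocked log2 fold changes were -0.01 for LNA1, -0.05 for LNA2 and 0.0047 for isoproterenol, with 95% intervals from -0.16 to 0.14, from -0.21 to 0.10 and from -0.12 to 0.13.

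**Figure D4:**
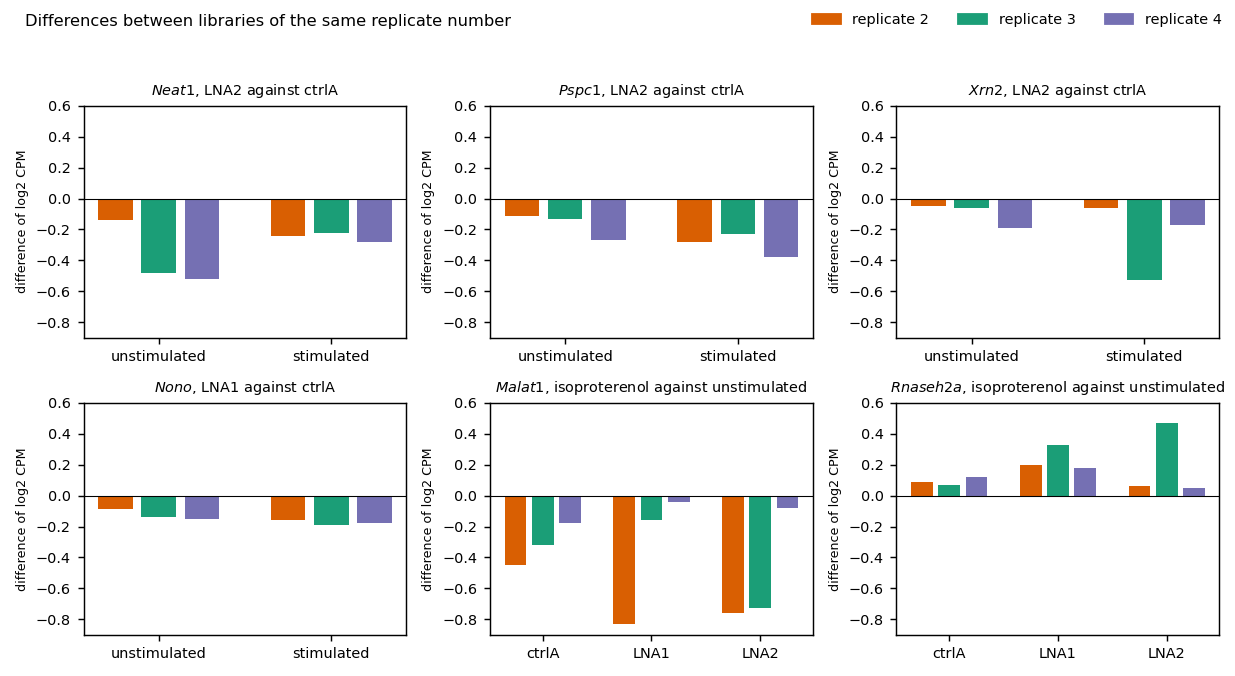
Difference of log2 CPM (y axis, equal scale in all panels) between libraries of the same replicate number, for 6 combinations of gene and contrast; each bar is 1 pair, coloured by replicate number and grouped by stimulation or by LNA. All bars of a panel point in 1 direction, and the largest difference of Malat1 with isoproterenol is -0.83 in the pair of LNA1 libraries numbered 2.

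Malat1 (chr19:5795690-5802672, minus strand) had the largest difference of the 9 genes with isoproterenol. In ctrlA cells the libraries numbered 2, 3 and 4 went from 1064.1, 894.9 and 952.7 CPM to 779.4, 714.6 and 840.9 CPM, with no overlap between the groups, as for 10.2% of tested genes. In LNA1 cells they went from 1744.6, 908.9 and 918.3 CPM to 983.2, 812.3 and 891.8 CPM, and in LNA2 cells from 1432.4, 912.5 and 1119.7 CPM to 848.7, 548.8 and 1056.0 CPM. Malat1 was lower with isoproterenol in 9 of 9 pairs, and the size differed between them, from 0.04 in the LNA1 pair numbered 4 to 0.83 in the LNA1 pair numbered 2. All 9 pairs lay in 1 direction for 15.3% of tested genes.

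Over all LNAs the log2 fold change of Malat1 was -0.41 (SE 0.15, adjusted p = 0.184), and -0.40 (SE 0.10, adjusted p = 0.0084) with the block. Without the libraries numbered 2 the blocked value was -0.25 (adjusted p = 0.169), whereas without those numbered 4 it was -0.54 (adjusted p = 0.00398), which also exceeded the limit on the fold change. The share of CT010467.1 in the libraries numbered 2 was 5.8%, 14.3% and 8.31% in unstimulated and 3.61%, 7.44% and 2.88% in stimulated cells, in the order ctrlA, LNA1 and LNA2, so that the library with the highest share was also that with the most Malat1. Its part in the difference was not tested. With LNA1 and LNA2 against ctrlA, Malat1 had log2 fold changes of 0.25 (SE 0.19, adjusted p = 1) and 0.16 (SE 0.19, adjusted p = 0.931), and neither passed with the block (adjusted p = 0.307 and 0.479). With 1 library left out the unblocked value of Malat1 ranged from 0.06 (without unstimulated LNA1 replicate 2) to 0.33 (without unstimulated LNA1 replicate 3) for LNA1. For LNA2 it ranged from 0.05 (without stimulated LNA2 replicate 4) to 0.27 (without stimulated LNA2 replicate 3). Exons of Malat1 overlap those of Gm37376 on the opposite strand over 453 bases.

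In the other direction from Malat1, Neat1, Nono and Pspc1 were higher with isoproterenol in the fit with the block. It amounted on the log2 scale to 0.18 for Neat1 (SE 0.06, adjusted p = 0.0239), 0.11 for Nono (SE 0.03, adjusted p = 0.0219) and 0.15 for Pspc1 (SE 0.04, adjusted p = 0.0113). Without the block the same genes had adjusted p of 0.82, 0.842 and 0.619. Of these, only Neat1 passed without the libraries numbered 3 (adjusted p = 0.0124, block), and none of them without those numbered 2 or those numbered 4. With 1 library left out the unblocked values ranged from 0.09 to 0.28 for Neat1, from 0.05 to 0.17 for Nono and from 0.11 to 0.20 for Pspc1. Nono was higher in 9 of 9 pairs, where 15.3% of tested genes had all pairs in 1 direction, and Neat1 and Pspc1 in 8 of 9. Among the single LNAs, only the change of Pspc1 in ctrlA cells passed for these genes, at 0.24 (adjusted p = 0.0411, block, passed by 7.88% of tested genes), and its change with LNA1 of 0.09 and with LNA2 of 0.12 was not shown to differ from it (adjusted p of the interactions 1 and 0.818). Xrn2 at 0.10 (adjusted p = 0.0958) and Exosc10 at 0.09 (adjusted p = 0.144) did not pass with the block, although Xrn2 did without the libraries numbered 3, at 0.13 (adjusted p = 0.0323, block).

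The response to isoproterenol was not found to differ between LNAs for any of the 9 genes. In edgeR's tests of interaction 0 of the 9 passed an adjusted p of 0.05 for LNA1 and 0 for LNA2, without or with the block, and 0.0% of all tested genes did. DESeq2 also passed 0 of the 9, while over all genes it passed 2 for each interaction without and 3 with the block. At an unadjusted p below 0.05, 0.702% and 0.776% of tested genes passed without the block. The 95% intervals of the interactions reached from -1.03 to 1.17 on the log2 scale without the block.

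Several markers of cell state moved with the same groups. The brown adipocyte markers Ucp1, Cidea and Ppargc1a passed as higher with isoproterenol, as did 2.66% of all tested genes. The log2 fold change of Ucp1, the uncoupling protein, was 3.51 (adjusted p = 1.12e-08), from a low level. Elovl3 passed as higher only with the block, and Dio2 had too few counts to be tested. The adipocyte marker Adipoq passed as lower by -0.71 (adjusted p = 0.00729), and the summed adipocyte markers ranged from 13148 to 23209 CPM in unstimulated and from 9570 to 17208 CPM in stimulated cells. Of 3 preadipocyte markers tested, Pdgfra passed as higher with LNA1 (0.89, adjusted p = 0.00744) and with LNA2 (0.71, adjusted p = 0.0121), and Ly6a with isoproterenol (1.58, adjusted p = 0.0416). With the block Ly6a was also higher with LNA2 (0.66, adjusted p = 0.00549). Of the 6 adipocyte markers, 4 were lower with isoproterenol in the fit with the block (Adipoq, Fabp4, Plin1 and Lipe), 1 with LNA1 (Plin1, -0.23, adjusted p = 0.00449) and 2 with LNA2 (Fabp4, -0.21, adjusted p = 0.0303, and Pparg, -0.20, adjusted p = 0.00487). In the same fit 12.2%, 4.03% and 11.2% of all tested genes were lower in these contrasts. The 4 macrophage markers summed to 8.16 to 12.6 CPM in unstimulated ctrlA, 11.5 to 15.1 CPM in LNA1 and 14.0 to 28.3 CPM in LNA2 cells, nearly all of it Cd68, while Ptprc and Adgre1 were at or near 0. In stimulated cells the sums were 11.9 to 24.7, 19.1 to 30.1 and 26.0 to 44.2 CPM in the same order. With the block Cd68 (0.88, adjusted p = 7.74e-05) and Csf1r (1.71, adjusted p = 0.00677) were higher with LNA2 than with ctrlA, and Cd68 also with LNA1 (0.42, adjusted p = 0.0408) and with isoproterenol (0.90, adjusted p = 2.48e-06). Of the brown adipocyte markers, Elovl3 (-0.38, adjusted p = 0.00087) and Ppargc1a (-0.31, adjusted p = 0.019) were lower with LNA2, and Elovl3 with LNA1 (-0.44, adjusted p = 0.000932). In LNA2 against LNA1, also with the block, Cd68 (0.46, adjusted p = 0.0124), Csf1r (2.06, adjusted p = 0.00496), Ly6a (0.51, adjusted p = 0.0307), Adipoq (0.21, adjusted p = 0.0196) and Plin1 (0.18, adjusted p = 0.0129) were higher and Pparg was lower (-0.15, adjusted p = 0.0311). The part of these differences in the values of the 9 genes was not tested, and fewer cells of a type cannot be told apart from less RNA per cell.

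Genes that act in the same steps were counted from 7 lists that held 94 genes, of which 89 were tested. Without the block 0 of these passed an adjusted p of 0.05 for LNA1, 0 for LNA2 and 0 for LNA2 against LNA1, where 0.475%, 1.59% and 0.97% of all tested genes did. For isoproterenol 1 of the 89 passed against 4.57% of all tested genes. This was Kcnq1ot1, a nuclear long non-coding RNA of an imprinted locus, which was lower (log2 difference -0.55, SE 0.12, adjusted p = 0.0146). With the block, 0 of the 89 were higher and 2 lower for LNA1, where 3.77% and 4.03% of all tested genes were. For LNA2 1 was higher and 8 lower (9.43% and 11.2% of all tested genes), for LNA2 against LNA1 1 and 7 (8.23% and 7.2%), and for isoproterenol 14 and 2 (14.2% and 12.2%).

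With the block, the other paraspeckle proteins (20 tested) had 0 genes higher and 4 lower with LNA2 against ctrlA, where 9.43% of all tested genes were higher and 11.2% lower. The median log2 fold change was -0.11 over the list and -0.02 over all genes. The lower genes were Hnrnpa1, a splicing regulator found in paraspeckles (-0.41, adjusted p = 3.95e-05), the polyadenylation factor Cpsf6 (-0.21, adjusted p = 0.0339), the splicing factor Hnrnph1 (-0.22, adjusted p = 0.0352) and Taf15, an RNA-binding protein of the FET family (-0.18, adjusted p = 0.0444). With LNA2 against LNA1 0 were higher and 2 lower, Hnrnpa1 (-0.36, adjusted p = 0.000183) and Rbmx (-0.32, adjusted p = 0.0123), where 8.23% of all tested genes were higher and 7.2% lower, and with LNA1 against ctrlA 0 of the 20 passed. With isoproterenol 4 were higher and 0 lower, against 14.2% and 12.2% of all tested genes. The higher genes were Hnrnpa1 (0.25, adjusted p = 0.000217), Ewsr1 (0.17, adjusted p = 0.019), Rbm3 (0.14, adjusted p = 0.0336) and Dazap1 (0.15, adjusted p = 0.0374). Hnrnpa1 thus passed in the same contrasts and directions as Pspc1 and Neat1.

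For the partners of the nucleases the same block was used, with which 7.8%, 20.6%, 15.4% and 26.4% of all tested genes passed for LNA1, LNA2, LNA2 against LNA1 and isoproterenol. Of 8 further factors of RNA:DNA hybrids, Xrcc6, a subunit of the Ku dimer that binds DNA ends, was lower with LNA1 (-0.16, adjusted p = 0.0143) and LNA2 (-0.12, adjusted p = 0.0303), the helicase Dhx9 was lower with LNA2 than with LNA1 (-0.20, adjusted p = 0.0404), and 0 passed with isoproterenol. Of 10 exonucleases and partners of the 5′ pathway, the decapping scaffold Edc4 was higher with LNA2 (0.38, adjusted p = 0.00339) and with isoproterenol (0.20, adjusted p = 0.0306), and the termination factor Pcf11 was lower with LNA2 than with LNA1 (-0.28, adjusted p = 0.0107). Of 18 exosome genes, 0 passed in the 3 comparisons of LNAs, and the core subunit Exosc4 (0.24, adjusted p = 0.0175) and the helicase Mtrex (0.14, adjusted p = 0.0341) were higher with isoproterenol.

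Of 12 proteins known to bind phosphorothioate oligonucleotides, 4 were higher with isoproterenol and 0 lower in the fit with the block, where 14.2% of all tested genes were higher and 12.2% lower. They were the nucleolar proteins Fbl (0.53, adjusted p = 1.01e-05) and Nop56 (0.30, adjusted p = 3.68e-05), the chaperone Hsp90ab1 (0.30, adjusted p = 2.99e-05) and the chaperonin subunit Tcp1 (0.13, adjusted p = 0.0101). In the comparisons of LNAs 1 was lower with LNA2 (Caprin1, an RNA-binding protein of stress granules, -0.14, adjusted p = 0.0366), 1 higher with LNA2 than with LNA1 (Hsp90ab1, 0.19, adjusted p = 0.0172) and 0 passed for LNA1. Among all tested genes 11.2% were lower with LNA2, 8.23% were higher with LNA2 than with LNA1 and 7.8% passed for LNA1. The lists that follow stand beside 7.8%, 20.6%, 15.4% and 26.4% of all tested genes. These passed with the block for LNA1, LNA2, LNA2 against LNA1 and isoproterenol. Of 15 nuclear speckle factors, Srsf5 was lower with LNA1 (-0.21, adjusted p = 0.00666), Srsf7 with LNA2 (-0.15, adjusted p = 0.0393), and Son (-0.23, adjusted p = 0.00199) and Tra2b (-0.16, adjusted p = 0.0401) with LNA2 against LNA1, while Hnrnpc (0.18, adjusted p = 0.00776) and Acin1 (0.14, adjusted p = 0.0159) were higher with isoproterenol. Of 6 other long non-coding RNAs tested, Firre was lower with LNA2 (-0.28, adjusted p = 0.00117), with LNA2 against LNA1 (-0.19, adjusted p = 0.0209) and with isoproterenol (-0.29, adjusted p = 5.87e-05), and with isoproterenol Kcnq1ot1 was lower (-0.55, adjusted p = 0.000821) and the snoRNA host Gas5 higher (0.26, adjusted p = 5.86e-05).

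After the mean of each replicate number was removed from log2 CPM, the 9 genes fell into no single pattern over the 18 libraries, which differ in depth and, by number, in the share of ribosomal and mitochondrial counts. Pearson's r was 0.787 between Neat1 and Pspc1, 0.649 between Neat1 and Xrn2 and 0.694 between Xrn2 and Pspc1. Between Malat1 and Nono it was -0.682 and between Rnaseh1 and Xrn2 -0.619. Sfpq was at -0.00901 with its partner Nono and at 0.178 with Pspc1. These values depended on the removal of the means. Before it, r was -0.322 for Neat1 and Pspc1, -0.397 for Neat1 and Xrn2, 0.124 for Malat1 and Nono and -0.621 for Sfpq and Pspc1, each with the opposite sign. It was 0.841 for Xrn2 and Pspc1, -0.0324 for Rnaseh1 and Xrn2 and -0.853 for Nono and Sfpq, each with the same sign.

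Among all genes of at least 5 CPM, those closest to each of the 9 in this measure were found in the same way. Their r values are the highest of many and include the LNA and isoproterenol differences given above. They describe likeness and are no separate test. Hnrnpa1 was the closest to Pspc1 (r = 0.931) and to Neat1 (r = 0.914), for which Col3a1 (0.904) and Rhoj (0.878) came next. Malat1 was closest to Slc26a2 (0.91), Pikfyve (0.899) and Ino80d (0.895), and Xrn2 to Gmps (0.964), Rab10 (0.952) and Dnajb4 (0.95). Nono was closest to Slc37a2 (0.935) and the translation elongation factor subunits Eef1g (0.925) and Eef1b2 (0.923), and Pspc1 after Hnrnpa1 to Dpy19l1 (0.903) and Ino80e (0.898). Rnaseh2a was closest to Otub1 (0.944), Supt5 (0.94) and Wdr90 (0.929), Exosc10 to Mier2 (0.929), Cox10 (0.911) and Umps (0.907), Sfpq to Ipmk (0.886), Srsf2 (0.85) and Aasdhppt (0.841), and Rnaseh1 to Prkcsh (0.85), Pus1 (0.848) and Dctn2 (0.842).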

How the data were processed

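Total RNA was isolated on spin columns after lysis in TRIsure, the labels name the sequenced molecule as polyadenylated RNA, and the NEBNext Ultra II kit was used for paired-end libraries. The authors used cutadapt to filter reads, and salmon with the Gencode M22 transcripts (GRCm38) to quantify them. The deposited values are expected counts per gene (estimated counts, all whole numbers). Program versions, the use of strand and the summing of transcripts to genes were not given in the sources used here.

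Here, edgeR 4.0.16 (R 4.3.3) was applied to the counts of the 18 libraries. After filterByExpr (minimum count 10, minimum total 15) and TMM normalisation, glmQLFit was run with 1 term per group. Contrasts were tested two-sided with glmQLFTest, with Benjamini-Hochberg adjustment over 14949 genes. A call required an adjusted p below 0.05 and an absolute log2 fold change above 0.5. Interactions were tested at 0.05 and the joint test at 0.001. The methods behind the deposited tables used DESeq2 with shrunken fold changes. Every pair of libraries of a group (18 pairs) differed by more than sampling noise (chi-square per degree of freedom 4.32 to 177). The 95% intervals come from these fits and include the spread between libraries, whereas the floors of detection cover counting error only.

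Libraries of the same number were paired on the evidence of the data and not of the labels. Deviations from group means correlated at 0.24 to 0.722 in all 45 same-number pairs of libraries (median 0.432), and at -0.596 to 0.404 in the 90 others (median -0.436), so that the ranges overlapped. Deviations within a group cancel out, so that positive values for the same number force negative ones for others. The values of the 90 pairs are thus no separate evidence of pairing. The blocked fit had been seen before this check was written down. Alternatives were DESeq2 1.42.0 with and without the block, upper quartile and median-ratio scaling, library sizes without mitochondrial genes and CT010467.1, no filter, and libraries left out singly or by number. The edgeR fit without the block was tried on simulated counts that held no effect of the replicate number. The blocked fit and DESeq2 were not tried in this way.

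The members and gene lists were chosen with earlier results of these data known. All 9 members were named, and from each list and averaged contrast at most 4 genes past an adjusted p of 0.05 by smallest p. For each member the 3 most similar genes were named. Gene positions, exon lengths and transcripts for the search of complementary runs come from GENCODE M21 (GRCm38), 1 release older than that used by the authors, and LNA sequences from the oligonucleotide table of the study. Coordinates count from 1.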

Additional observations from a re-analysis of the deposited data

How the results depend on the processing

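The 0 of 9 genes called under both limits held in every setting run except 1, and the settings differed in how many of the 9 passed an adjusted p of 0.05 alone. With the replicate block 1 passed for LNA1, 3 for LNA2, 3 for LNA2 against LNA1 and 5 for isoproterenol. With DESeq2 and the block 1, 4, 3 and 5 passed, where 8.64%, 21%, 15.5% and 25.6% of all tested genes did, and 3 passed the joint test (19.1% of all tested genes). Further fits, chosen after seeing the data, had the block and left out the 6 libraries of 1 number. Without number 2, 1 passed for LNA2 (11.9% of all tested genes) and 2 for LNA2 against LNA1 (7.2%). Without number 3, 2 passed for LNA2 (14.2%), 2 for LNA2 against LNA1 (8.71%) and 3 for isoproterenol (21.8%), and without number 4 only Malat1 passed, for isoproterenol (19.3%), where this 1 gene was also called under both limits. Of the 12 blocked results for a gene and a contrast, 12 remained with DESeq2, 3 without number 2, 6 without number 3 and 1 without number 4. Those fits rest on 12 libraries in place of 18. When single libraries were left out without the block, the smallest adjusted p was 0.107 (Malat1, isoproterenol).

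Log2 fold changes near 0 changed sign in some settings, and the cause was not tested. With upper quartile scaling the values for LNA1 against ctrlA were 0.00087 for Xrn2, 0.032 for Sfpq and 0.0216 for Pspc1. For isoproterenol Sfpq was at 0.0047 with the block and 0.0100 with DESeq2 and the block. Without number 2, first without and then with the block, LNA1 against ctrlA gave 0.011 and 0.0214 for Rnaseh1, 0.0215 and 0.0214 for Sfpq and 0.0411 and 0.0403 for Pspc1, and LNA2 against LNA1 gave 0.0375 and 0.0104 for Malat1. Without number 3, in the same order, isoproterenol gave -0.0253 and -0.0272 for Rnaseh1 and 0.0453 and 0.0573 for Sfpq, LNA1 against ctrlA gave -0.0033 and -0.0227 for Neat1, LNA2 against ctrlA gave 0.0203 and 0.0333 for Sfpq, and LNA2 against LNA1 gave 0.0654 and 0.0741 for Sfpq. Without number 4, LNA1 against ctrlA gave 0.0218 and 0.0149 for Sfpq and, with the block, 0.00398 for Pspc1, and isoproterenol with the block gave 0.0088 for Sfpq.

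Single libraries were left out only without the block. This leaves the replicate numbers unequal between the groups, so that the ranges include that imbalance. With 1 library left out in turn, the log2 fold change for LNA1 against ctrlA ranged from -0.116 to 0.034 for Xrn2, from -0.11 to 0.172 for Neat1, from -0.106 to 0.111 for Sfpq and from -0.0709 to 0.0531 for Pspc1. For LNA2 against ctrlA it ranged from -0.159 to 0.0028 for Nono and from -0.173 to 0.0444 for Sfpq. For LNA2 against LNA1 it ranged from -0.198 to 0.111 for Malat1, from -0.0107 to 0.164 for Nono and from -0.174 to 0.0526 for Sfpq, and for isoproterenol from -0.0146 to 0.0916 for Rnaseh1 and from -0.0892 to 0.0563 for Sfpq.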
